A study of Mus musculus with 8 samples.

Results

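Intermediate filament proteins form the cytoskeletal network that gives glial cells their shape and resistance to strain. Gfap encodes the filament protein that marks astrocytes, Vim encodes vimentin, Nes encodes nestin of neural stem and progenitor cells, and Synm encodes synemin, a large protein that joins filaments built by the others. Reactive astrocytes and ependymal cells of the injured spinal cord are known to make more of these proteins. SOX9 is a transcription factor of astrocytes and ependymal cells, and whether it was bound at these genes with and without injury was asked here. The 4 genes were chosen by name out of 21755 protein-coding genes on chromosomes 1 to 19 and X, and each was taken with its start site, its gene body and 20 kb to each side.

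SOX9 CUT&Tag was performed on nuclei of wild-type (WT) C57BL/6 mice, which the study's reporting summary gives as 2 to 6 months old. CUT&Tag uses antibodies to bring a transposase to a chromatin protein, which cuts out the DNA beside that protein for sequencing. Spinal cords were taken from uninjured mice and from mice at 1 day after a contusion of the thoracic cord (1 d.p.i.), and each condition had a SOX9 library from males (M) and 1 from females (F). Each sample also had a secondary-only control, made without the SOX9 antibody from a part of its nuclei that had been set aside, so that 8 libraries fell into 4 groups of 2. The M and F libraries came from different animals, and for sequencing a few animals were pooled per condition, with as many females as males. How many went into each CUT&Tag library is not stated. The sample labels name a sort on a DNA dye alone, while the methods of the paper refer back to a sort that also used antibodies to NEUN, of neurons, or SOX10, of oligodendroglia, so the cell types in the libraries are not certain. A change in SOX9 at a gene and a change in the share of cells that bear SOX9 there cannot be told apart.

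For SOX9, sequencing gave 1869806 (M) and 7209462 (F) fragments without injury, against 2513522 (M) and 2381412 (F) with injury. Without injury the controls held 22707 (M) and 46637 (F) fragments, and with injury they held 52684 (M) and 10892 (F). The uninjured F library was the deepest, and every control was far shallower than every SOX9 library. SOX9 coverage is given below as a multiple of the mean coverage of its library over chromosomes 1 to 19 and X, so that a value of 1 is the average of the genome. With 2 libraries against 2, an exact permutation test cannot give a two-sided p below 0.33, so differences between conditions were tested with limma across all windows of a kind, on log2(coverage + 0.5). In the text, values with injury are those at 1 d.p.i., always M before F. The log2 changes understate the change of windows with low coverage. All p-values and standard errors rest on the spread between 2 libraries per condition. In limma this spread is pulled towards a trend over all windows of a kind, so they do not measure the spread at a single gene alone.

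Around the start site, within 1 kb to each side, SOX9 coverage differed most between conditions at Vim, where it was 2.109 and 3.24 without injury (M, F) and 7.39 and 6.84 with it. Both injured libraries exceeded both uninjured ones, with means of 2.67 ± 0.799 and 7.12 ± 0.389 (SD, n = 2 each). The log2 change was 1.29 with a standard error of 0.67, and it did not pass the test (limma, adjusted p = 1.00). The order of Vim and Nes depended on the setting. With 500 bp to each side the log2 changes were 1.19 at Vim and 1.43 at Nes. Nes was also above Vim without the uninjured F library (1.77 against 1.55) and without the F library at 1 d.p.i. (1.39 against 1.34). The Vim window rested on few fragments, 3 and 19 without injury (M, F) and 15 and 13 with it.

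At Gfap the start site window had a SOX9 coverage of 6.94 and 4.54 without injury (M, F) and 9.91 and 6.80 with it. Each library at 1 d.p.i. was above the uninjured library of the same sex, but the groups overlapped. By sex the log2 changes were 0.49 (M) and 0.53 (F), against medians of 0.41 (M) and -0.54 (F) over all tested start sites. The log2 change was 0.51 with a standard error of 0.66 (limma, adjusted p = 1.00). At Nes the coverage was 1.17 and 4.27 without injury (M, F) and 6.90 and 3.90 with it. The 2 M libraries of Nes were the lowest and the highest, and the 2 F libraries lay between them. Its log2 change was 1.01 with a standard error of 0.68 (limma, adjusted p = 1.00). At Synm the coverage was 5.76 and 10.7 without injury (M, F) and 7.69 and 7.04 with it. The uninjured libraries of Synm lay on both sides of the libraries at 1 d.p.i., and its log2 change was -0.09 with a standard error of 0.66 (limma, adjusted p = 1.00).

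Thus 0 of the 4 genes passed the threshold of an adjusted p under 0.05 at the start site, and 0 of the 4 had an unadjusted p under 0.05. For Vim the latter depended on the setting (limma, unadjusted p = 0.054). Its unadjusted p was 0.016 at equal depth and 0.12 with trimmed-mean scaling (limma). With all 8 libraries it was 0.0038 (limma), but all 4 controls had a coverage of 0 there, which narrows the spread of that fit. The standard error fell to 0.28 at the same log2 change. Among all 18141 start site windows tested with limma, 2 passed, both with higher coverage with injury (0.011%), and 161 were higher and 170 lower at an unadjusted p under 0.05. Leaving out any of the 4 libraries gave 0. The even split rested on single libraries, with 35 higher and 886 lower at an unadjusted p under 0.05 without the uninjured M library, and 1385 and 163 without the uninjured F library. Vim was the only one of the 4 genes with both injured libraries above both uninjured ones, against 8.23% of all tested windows. With trimmed-mean scaling of the libraries, or when changes were centred on the median, Gfap joined Vim, and with libraries thinned to equal depth Gfap and Nes did. Over all tested windows the median log2 change was -0.07, and it was 0.41 from the M pair and -0.54 from the F pair. In counts simulated for these windows, with 200 of the better covered ones changed, the test recovered 0% at 2-fold and 92% at 4-fold. A start site that did not pass can thus still have changed.

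**Figure D1:**
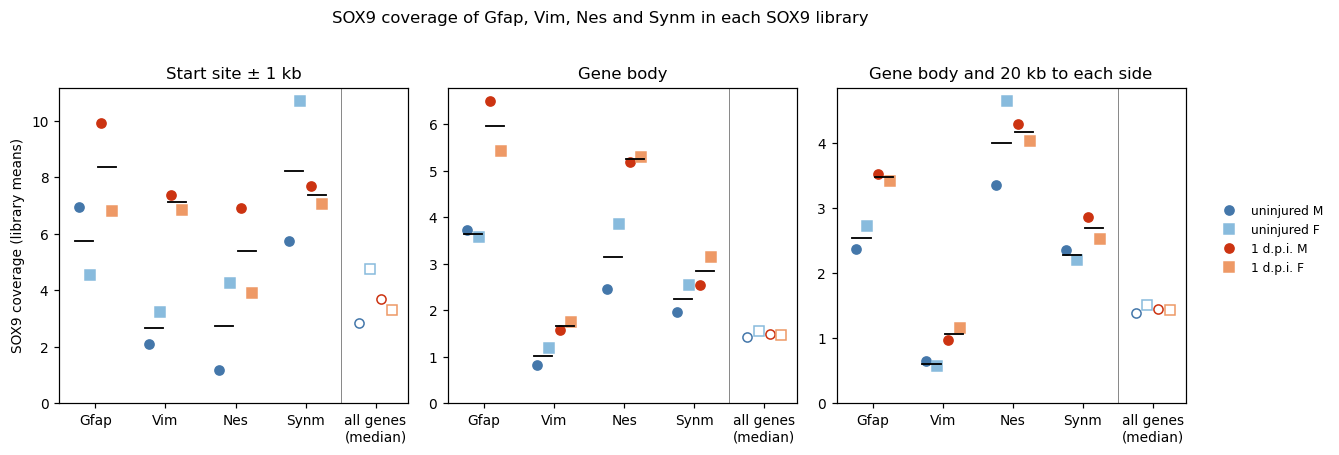
SOX9 coverage in multiples of the library mean at Gfap, Vim, Nes and Synm, for the start site with 1 kb to each side (left), the gene body (middle) and the gene body with 20 kb to each side (right). Filled points are the 4 SOX9 libraries, circles M and squares F, black lines are the means of the 2 libraries of a condition, and open points are the medians of all 21755 genes.

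Over the gene bodies, SOX9 coverage at Gfap was 3.72 and 3.57 without injury (M, F) and 6.50 and 5.43 with it. The conditions did not overlap at Gfap, and the difference was also present in the part of the gene body outside the start site window (3.29 ± 0.168 and 5.55 ± 0.509, SD, n = 2 each). In the F library at 1 d.p.i. this rested on 1 tile of 1 kb, from 102891001 to 102892000, chosen after its values were seen. Without it the whole Gfap body had 3.88 and 3.73 without injury (M, F) and 6.53 and 3.96 with it, and the part outside the start site window had 3.30 and 3.57 (M, F) and then 5.89 and 3.42, where the conditions overlapped. The log2 change over the Gfap body was 0.64 with a standard error of 0.27 (limma, adjusted p = 1.00). At Nes the gene body had 2.46 and 3.85 without injury (M, F) and 5.19 and 5.30 with it. The 2 libraries at 1 d.p.i. were close to each other and above both uninjured libraries, with a log2 change of 0.68 and a standard error of 0.29 (limma, adjusted p = 1.00).

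The Vim gene body was low, with SOX9 coverage of 0.831 and 1.19 without injury (M, F) and 1.58 and 1.74 with it. The difference lay at the start site, because outside that window the means of the Vim body were 0.712 ± 0.0267 without and 0.758 ± 0.0550 with injury (SD, n = 2 each). The log2 change over the whole Vim body was 0.53 with a standard error of 0.18 (limma, adjusted p = 1.00). The long gene body of Synm had 1.96 and 2.54 without injury (M, F) and 2.53 and 3.15 with it. The uninjured F library of Synm lay just above the M library at 1 d.p.i., and its log2 change was 0.28 with a standard error of 0.22 (limma, adjusted p = 1.00).

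Of the 4 gene bodies, 3 (Gfap, Vim and Nes) had both injured libraries above both uninjured ones, against 13.2% of the 17719 gene bodies tested, and 0 passed the test. Among all gene bodies 0 passed in limma (0%), with 368 higher and 348 lower at an unadjusted p under 0.05, and Vim was among the higher ones. Leaving out 1 library gave between 0 and 33. The split of 368 and 348 also rested on single libraries. Over all gene bodies tested the median log2 change was -0.03. It was -0.12 without the uninjured M library and 0.05 without the uninjured F library. With libraries thinned to equal depth, Vim no longer had both libraries at 1 d.p.i. on top, and Synm did. When changes were centred on the median, all 4 genes did.

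Across the whole loci, the Vim locus had the lowest SOX9 coverage of the 4, with 0.640 and 0.564 without injury (M, F) and 0.968 and 1.15 with it. All 4 libraries stood near or below the mean of the genome there, and both injured libraries exceeded both uninjured ones. The log2 change was 0.50 with a standard error of 0.17, the smallest adjusted p of the 4 loci, and it did not pass (limma, adjusted p = 0.411). It was higher than 99.4% of the changes of all tested loci. On the 20 kb upstream of Vim the means without and with injury were 0.518 ± 0.240 and 1.11 ± 0.157, and on the 20 kb downstream 0.506 ± 0.00283 and 0.746 ± 0.114 (SD, n = 2 each). The upstream 20 kb include the part of the start site window that lies before the gene.

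The Gfap locus had a SOX9 coverage of 2.37 and 2.72 without injury (M, F) and 3.52 and 3.42 with it. The Synm locus had 2.36 and 2.198 without injury (M, F) and 2.86 and 2.53 with it. In both loci the 2 conditions did not overlap, and the log2 changes were 0.39 (standard error 0.24) and 0.20 (standard error 0.21; limma, adjusted p = 1.00 for each). The Nes locus had the highest coverage of the 4, with 3.35 and 4.64 without injury (M, F) and 4.30 and 4.03 with it. The uninjured Nes libraries enclosed those at 1 d.p.i., the log2 change was 0.07 with a standard error of 0.30 (limma, adjusted p = 1.00), and without the uninjured M library it was -0.14.

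Gfap, Vim and Synm were thus the 3 loci with both injured libraries above both uninjured ones, against 12.3% of the 17624 loci tested. Among all loci, 26 had higher and 1 had lower coverage with injury at the same threshold (limma, 0.153%), and none of the 4 was among them. At an unadjusted p under 0.05, 432 loci were higher and 270 lower, and of the 4 only Vim was among the higher ones. The direction of this split depended on single libraries. Over all tested loci the median log2 change was -0.03. It was -0.12 without the uninjured M library and 0.05 without the uninjured F library. Leaving out the uninjured M library moved the count of all loci to 248 and leaving out the uninjured F library moved it to 210, so that it rested on single libraries. Its balance did too, with 126 higher and 122 lower in the first case and 145 higher and 65 lower in the second. With trimmed-mean scaling of the libraries 1 locus passed, and of the 4 genes only Gfap and Vim still had both injured libraries on top.

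Compared with other genes, SOX9 coverage at these start sites was in the middle to upper range. By the mean of the 4 SOX9 libraries, Synm (7.80) stood above 72.3% of all coding genes, Gfap (7.05) above 68.5%, Vim (4.90) above 56.8% and Nes (4.06) above 51.6%. The median gene had 3.81, so that Nes was close to it. Vim stood above 42.7% and 42.5% of genes without injury (M, F) and above 69.6% and 72.1% with it. For Gfap the shares were 77.8% and 48.9% without injury (M, F) and 78.6% and 71.9% with it. For Synm they were 71.6% and 72.0%, then 70.9% and 73.0%, so Gfap was above Synm in the M libraries alone. For Nes they were 30.9% and 47.6%, then 67.4% and 54.8%. Over the gene body the order was Gfap (4.81), Nes (4.20), Synm (2.55) and Vim (1.33), against a median of 1.49. Gfap stood above 87.5% of gene bodies by this mean, and Vim above 45.6%. Neighbours in these orders were not tested against each other.

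**Figure D2:**
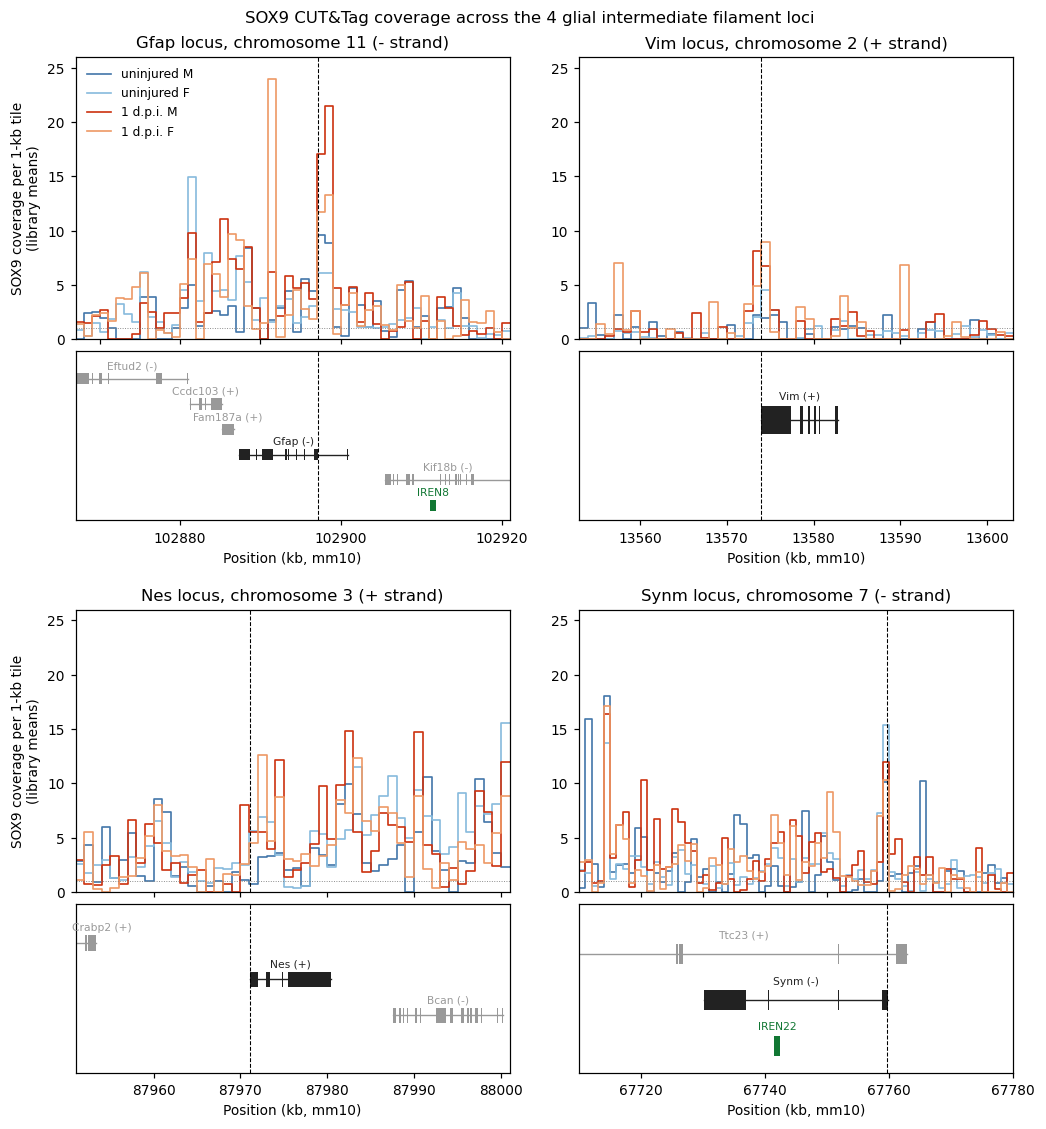
SOX9 coverage in 1-kb tiles (vertical axis, multiples of the library mean) along the 4 loci (horizontal axis, position in kb on mm10), with 1 line for each SOX9 library. Below each plot are the coding genes (member in black, others in grey; boxes are exons), IREN8 and IREN22 in green, and a dashed line at the start site.

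Gfap lies on the minus strand of chromosome 11 from 102887336 to 102900912 (mm10, GENCODE M21). Its principal transcript has 9 exons and starts at 102897131, and longer transcripts begin up to 3781 bp further upstream. The highest tile of the locus lay just upstream of the principal start site, from 102898001 to 102899000, in an intron of the longer Gfap transcripts. Its SOX9 coverage was 8.89 and 6.11 without injury (M, F) and 21.5 and 13.3 with it. The adjacent tile from 102897001 to 102898000, which holds the start site, had 9.60 and 6.06 without injury (M, F) and 17.1 and 11.8 with it. In both tiles each library at 1 d.p.i. was above each uninjured library, and the log2 changes were 1.14 (standard error 0.61) and 0.85 (standard error 0.61; limma over tiles, adjusted p = 0.999 for each). Controls also had coverage in these tiles, 86.3 (uninjured, F) and 18.45 (1 d.p.i., M) times their own low means in the first and 107 (1 d.p.i., M) in the second. The whole Gfap gene body held only 2 (uninjured, F) and 3 (1 d.p.i., M) control fragments. These multiples are thus not a background level to set beside SOX9 coverage.

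The other prominent tile of the Gfap locus, from 102881001 to 102882000, held the start site of Ccdc103, a gene of motile cilia. It had 5.02 and 14.9 without injury (M, F) and 9.81 and 7.42 with it, with a log2 change of -0.03. A tile inside the Gfap gene, from 102891001 to 102892000, was chosen after its values were seen, because it had the smallest adjusted p of the tiles in the 4 loci. It had 1.78 and 1.63 without injury (M, F) and 6.16 and 24.0 with it, so that most of the difference came from the F library. Its log2 change was 2.53 with a standard error of 0.67, from 36 fragments, and it did not pass (limma over tiles, adjusted p = 0.173).

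Vim lies on the plus strand of chromosome 2 from 13573927 to 13582826 with 9 exons, and no other coding gene starts within its locus. Only 2 of its 50 tiles had a mean of at least 3 times the library mean, and both overlapped its start site window. The tile from 13574001 to 13575000 had 1.99 and 4.51 without injury (M, F) and 6.70 and 8.96 with it. The tile before it, from 13573001 to 13574000, had 2.28 and 2.01 without injury (M, F) and 8.10 and 4.94 with it. Both tiles had both libraries at 1 d.p.i. above both uninjured ones, and the log2 changes were 1.22 (standard error 0.66) and 1.37 (standard error 0.72; limma over tiles, adjusted p = 0.999 for each). The next highest tile, from 13557001 to 13558000, was intergenic, had a mean of 2.75 and was high in the F library at 1 d.p.i. (6.99), with 13 fragments in all.

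Nes lies on the plus strand of chromosome 3 from 87971078 to 87980451 with 4 exons, and Bcan, which encodes the brain extracellular matrix proteoglycan brevican, starts 29137 bp from it. The SOX9 coverage of this locus was spread over many tiles, with 30 of 50 at or above 3 times the library mean, and it was highest downstream of Nes, towards Bcan. The tile at the Bcan start site, from 88000001 to 88001000, had 2.27 and 15.6 without injury (M, F) and 12.01 and 8.83 with it. A tile over Bcan exons, from 87990001 to 87991000, had 5.57 and 9.42 without injury (M, F) and 14.8 and 8.88 with it. An intergenic tile between the genes, from 87982001 to 87983000, had 9.93 and 5.74 without injury (M, F) and 14.8 and 7.25 with it. In these 3 tiles the conditions overlapped, and none passed the test. The start site window of Bcan had 2.62 and 11.7 without injury (M, F) and 6.77 and 6.81 with it, so that its uninjured libraries lay on both sides of the others.

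Synm lies on the minus strand of chromosome 7 from 67730160 to 67759742 with 4 exons, inside the longer gene Ttc23, which runs on the other strand. By the mean of the 4 SOX9 libraries, the highest tile of all 4 loci lay 45 kb downstream of the Synm start site. At 1 d.p.i. alone the highest Gfap tile had the higher mean, 17.4 against 16.7. The tile downstream of Synm ran from 67714001 to 67715000, in an intron of Ttc23. It had 18.0 and 13.8 without injury (M, F) and 16.4 and 17.1 with it, and it was higher than 99.8% of all tiles of the genome. The 4 SOX9 libraries were alike there, with a log2 change of 0.08 (standard error 0.61), and the controls at 1 d.p.i. had coverage there too, 50.4 (M) and 210 (F) times their own low means. Each of these 2 controls had only 2 fragments in the whole 20 kb downstream of Synm. Within the Synm locus the tile with the Synm start site, from 67759001 to 67760000, came next. It had 10.1 and 15.4 without injury (M, F) and 11.99 and 10.3 with it, and these conditions overlapped as well. The tile from 67711001 to 67712000 was high in 1 library alone, with 15.9 in the uninjured M library and 1.77 in the uninjured F library, and with 2.73 (M) and 2.91 (F) at 1 d.p.i.

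Across all tiles tested with limma, 0 of the 18 in the Gfap locus, 0 of 2 in the Vim locus, 0 of 30 in the Nes locus and 0 of 20 in the Synm locus passed, against 0.0429% of 163300 tiles of the genome, a share that rested on single libraries, with 13 to 596 tiles passing when 1 was left out. At an unadjusted p under 0.05 there were 2 tiles in the Gfap locus, 0 in Vim, 2 in Nes and 1 in Synm, against 4.10% of all tested tiles. Both injured libraries exceeded both uninjured ones in 5 (Gfap), 2 (Vim), 5 (Nes) and 7 (Synm) tiles, and both lay below them in 0, 0, 3 and 3. Over the genome the shares of tested tiles were 15.4% above and 16.5% below. Only tiles with a mean of at least 3 were tested, and some enter through the injured libraries alone, so these counts do not describe the loci as a whole.

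IREN8 and IREN22 are candidate injury-responsive enhancers (IRENs) that the study cloned for a screen, and both lie in these loci. IREN22 spans 881 bp on chromosome 7 from 67741501 to 67742381, in introns of both Synm and Ttc23, 17312 bp from the principal Synm start site. Another annotated Synm transcript starts nearer, in the tile from 67740001 to 67741000. The SOX9 coverage of IREN22 was 0 and 3.57 without injury (M, F) and 5.64 and 8.90 with it, from 0, 10, 5 and 10 fragments. Both injured libraries exceeded both uninjured ones, with means of 1.78 and 7.27 and a ratio of 4.07. The same order was found in 15.4% of all tested tiles. With 500 bp added to each side the means were 2.57 and 5.67 and the ratio was 2.21, and leaving out 1 library moved the difference of 5.48 to between 3.70 and 7.27. No test was made on the element alone, and 1 control fragment (uninjured, F) also fell in it. The tiles that hold it, from 67741001 to 67742000 and from 67742001 to 67743000, were tested. Their log2 changes were 0.77 (standard error 0.68) and 1.46 (standard error 1.00), and neither passed (limma over tiles, adjusted p = 0.999 for each). IREN8 spans 735 bp on chromosome 11 from 102911145 to 102911879, in introns of Kif18b and the noncoding gene Gm26668, 14014 bp from the principal Gfap start site. It had hardly any SOX9 coverage, with 0 (M) and 1.23 (F) in uninjured cords and 0 in both libraries at 1 d.p.i., from 4 fragments in the uninjured F library. With 500 bp added to each side it had 0.415 and 1.55 without injury (M, F) and 1.37 and 0 with it, and these overlapped. For IREN8 itself, 1 control fragment (1 d.p.i., M) fell in it. None of the tiles of the Gfap locus named here held IREN8.

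Secondary-only controls were counted in the same loci. The 4 controls together had 8 fragments in the Gfap locus, 0 in Vim, 9 in Nes and 9 in Synm, out of 132920. Scaled to 1000000 fragments this was 60.2 at Gfap (exact Poisson 95% interval 25.98 to 119), against 58.2 (54.2 to 62.3) in the 4 SOX9 libraries together. At Nes the controls had 67.7 (31.0 to 129) and the SOX9 libraries 79.4 (74.8 to 84.2), and at Synm 67.7 (31.0 to 129) and 62.8 (58.7 to 67.1). At Vim the 0 control fragments allow up to 27.8, and the SOX9 libraries had 14.3 (12.4 to 16.4). Intervals cover counting error only, and those of the controls included the SOX9 value in each of the 4 loci, so that enrichment over the controls was not detectable at this depth. Of the 26 control fragments, 22 had a start and an end that both also occur in 1 of the SOX9 libraries, among them 5 of 8 at Gfap and 9 of 9 at Synm, so the controls are not an independent background here.

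The letters of 3 motifs were looked for on both strands: SOX (ACAAAG or ACAATG), AP-1 (TGAGTCA or TGACTCA, each the reverse complement of the other) and the full palindromic nuclear factor I (NFI) motif. In the start site windows of all coding genes, 87.98% held at least 1 SOX match, 24.1% an AP-1 match and 0.138% an NFI match. The Vim window had 3 SOX and 2 AP-1 matches, and of all windows 42.0% had at least as many SOX and 3.44% at least as many AP-1 matches. The Gfap window had 1 SOX and 0 AP-1 matches, the Nes window 1 and 0, and the Synm window 0 and 1. No window of the 4 genes held the NFI letters, and no SOX match overlapped an AP-1 match. A match gives only letters in a window and was not tested as a binding site.

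The stretch upstream of Vim that holds 4 of these matches is shown because its gene had the clearest difference at the start site. It is chr2:13573512-13573811 (GRCm38, plus strand, 5′ to 3′), it overlaps no exon, and the capitals mark, in order, a SOX, an AP-1, another AP-1 and a SOX match.
Vim upstream: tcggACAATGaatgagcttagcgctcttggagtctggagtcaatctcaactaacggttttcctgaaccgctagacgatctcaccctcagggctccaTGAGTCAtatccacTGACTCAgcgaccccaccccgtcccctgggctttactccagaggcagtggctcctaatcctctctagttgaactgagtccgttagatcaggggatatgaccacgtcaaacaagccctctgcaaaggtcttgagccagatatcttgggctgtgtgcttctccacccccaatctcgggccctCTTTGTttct
SOX9 coverage of this stretch was 6.20 and 2.29 without injury (M, F) and 8.53 and 6.39 with it, from 2, 4, 7 and 4 fragments. Its conditions did not overlap, but the uninjured M library was close to the F library at 1 d.p.i.

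The highest Gfap tile had 1 AP-1 match and 0 SOX matches, where 17.2% and 70.2% of all tested tiles had at least 1. The stretch around the AP-1 match, chr11:102898672-102898778 (GRCm38, minus strand, the strand of the gene), lay in an intron of the longer Gfap transcripts and is shown because the tile was the highest of its locus, with the match in capitals.
Gfap upstream: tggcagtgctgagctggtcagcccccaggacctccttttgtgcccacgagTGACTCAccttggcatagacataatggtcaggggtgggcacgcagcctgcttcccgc
Its SOX9 coverage was 16.0 and 5.58 without injury (M, F) and 28.4 and 22.0 with it, from 4, 7, 10 and 7 fragments, and 1 control fragment (1 d.p.i., M) also covered it. Both libraries at 1 d.p.i. were the highest. The highest tiles of the Vim and Nes loci held no match of the 3 motifs, and that of the Synm locus held 3 SOX matches, a number that 15.0% of tested tiles reached.

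The elements of the study are shown around matches, since both held SOX and AP-1 letters. IREN22 had 1 match of each, where 65.7% of tile stretches of the same length held a SOX and 15.4% an AP-1 match. IREN8 had 2 SOX and 1 AP-1 matches, numbers that 24.7% and 13.0% of stretches of its length reached, and its other SOX match lies outside the stretch shown. The stretches are chr7:67741786-67741892 and chr7:67742178-67742283 for IREN22 and chr11:102911341-102911464 for IREN8 (GRCm38, plus strand, matches in capitals).
IREN22 with AP-1: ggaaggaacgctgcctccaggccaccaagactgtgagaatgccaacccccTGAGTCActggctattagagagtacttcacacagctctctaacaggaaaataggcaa
IREN22 with SOX: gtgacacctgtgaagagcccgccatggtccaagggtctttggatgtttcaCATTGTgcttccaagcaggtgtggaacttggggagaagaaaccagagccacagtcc
IREN8 with SOX and AP-1: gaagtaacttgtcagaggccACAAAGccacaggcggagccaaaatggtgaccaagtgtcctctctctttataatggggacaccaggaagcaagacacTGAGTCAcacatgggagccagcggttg
The AP-1 stretch of IREN22 had a SOX9 coverage of 0 and 6.21 without injury (M, F) and 4.00 and 4.15 with it. Its SOX stretch had 0 and 2.88 without injury (M, F) and 11.998 and 5.57 with it. The conditions overlapped at the first and not at the second, and each value rests on at most 7 fragments. Over the IREN8 stretch the uninjured F library had 1 fragment and the other SOX9 libraries had 0.

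In base composition the 4 start site windows also differed. Their GC content was 55.5% at Gfap, 55.8% at Vim, 60.3% at Nes and 60.3% at Synm, against a median of 51.5% over all coding genes. The ratio of observed to expected CpG was lowest at Gfap (0.288) and highest at Synm (0.848), with 0.597 at Vim, 0.694 at Nes and a median of 0.486. Gfap thus had the CpG-poorest start site of the 4 and Synm the richest, above 95.02% of all genes.

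The genes whose start site coverage was most like that of each member were found by Euclidean distance over the 4 SOX9 libraries, on the log2 scale. For Vim these were Rgs20, Insl3 and Gm49361 (distances 0.297, 0.419 and 0.428), and for Gfap they were Aebp1, Cldn34c1 and Zfp148 (0.284, 0.313 and 0.331). For Nes they were Gm2897, Kansl3 and Rtl6 (0.206, 0.222 and 0.239), and for Synm Saraf, Crb3 and Preb (0.111, 0.123 and 0.137). None of these 12 genes passed the test. Among the coding genes that start inside the loci, Fam187a, 11962 bp from Gfap, had 2.37 and 4.23 without injury (M, F) and 10.1 and 5.56 with it. Its conditions did not overlap, with a log2 change of 1.12 and a standard error of 0.66 (limma, adjusted p = 1.00). Eftud2 and Ccdc103, whose start sites lie close together and share most of a window, had log2 changes of 0.10 and 0.01.

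Other genes of the filament network were taken as lists. Of 17 other intermediate filament genes, 16 were tested, 6 had a positive and 10 a negative log2 change, and 0 passed, with a median of -0.38 against -0.07 over all tested start sites. Their mean coverage ran from 0.493 at Krt10, a keratin of the epidermis, to 15.8 at Lmna, which encodes the lamins A and C of the nuclear envelope. The values at Lmna were 11.9 and 19.5 without injury (M, F) and 20.1 and 11.8 with it, and they overlapped. Of 5 filament linkers and chaperones, all were tested, 3 had a positive change and 0 passed, with a median of 0.15. Their lowest was Hspb8, a small heat shock protein, with a mean of 3.28, and their highest Dst, which encodes the linker dystonin, with a mean of 12.3. Of the 4 members, 3 had a positive change, with a median of 0.76.

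Since the cell types in the libraries are not certain, coverage was also read at the start sites of cell type markers, which is not a measure of their expression. By the median of the mean coverage, 3 neuron markers had 7.84, 6 astrocyte markers 5.08, 2 oligodendrocyte progenitor markers 2.92, 3 ependymal markers 2.62, 3 microglia markers 2.58 and 3 endothelial markers 2.16. Of all markers the highest was Mobp, of oligodendrocytes, which SOX10 marks, with 16.3 and 26.8 without injury (M, F) and 20.5 and 19.01 with it. The highest astrocyte marker was Slc1a2, a glutamate transporter, with 13.9 and 13.3 without injury (M, F) and 18.95 and 11.1 with it. Both genes had more SOX9 coverage than any of the 4 filament genes, and their conditions overlapped. In the order of these lists the highest genes were Syt1, Slc1a2, Cspg4, Foxj1, Cx3cr1 and Cldn5, and the lowest were Snap25, Gja1, Pdgfra, Dnali1, P2ry12 and Pecam1. Their median log2 changes were -0.26, 0.18, 1.07, -0.78, 0.22 and -0.64. The microglia value rests on 2 tested markers, of which 1 had a positive change. P2ry12 lay under the coverage filter and was not tested, with 0.891 and 0.956 without injury (M, F) and 0.026 and 0.0921 with it. In each of these 6 lists 0 genes passed the test, and the part of cell type shares in the values of the 4 filament genes was not tested.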

How the data were processed

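The deposited file holds unscaled coverage signal for each library, which the authors made from reads aligned with Bowtie2 2.5.4 after Picard 3.4.0 had removed duplicates; SEACR 1.3 peaks were not used. The step that wrote the coverage is not described in the labels. Each rise of the coverage was taken as a fragment start, and coverage was divided by the mean of its library, from 1869806 to 7209462 fragments for SOX9 and from 10892 to 52684 for the controls. Genes were taken from GENCODE M21 (GRCm38). The 4 SOX9 libraries were compared with limma 3.58.1 in R 4.3.3, with a trend, on windows with a mean of at least 0.5 (tiles 3), and p-values were adjusted by Benjamini and Hochberg over all windows of a kind. The members and lists were chosen with earlier results of these data known. Named genes are the members, coding genes that start in their loci, the 3 nearest patterns of each member, and the lowest and highest gene of a list; 1 marker list is not reported here beyond its highest gene. Tiles are the 3 highest of each locus, those that hold IREN22 or lie beside it, and 1 more that was chosen after its values were seen. Alternatives were other scalings, pseudocounts, filters, windows and fits, equal depth, and leaving out libraries. Python 3.11.15, numpy 2.4.6, pandas 2.3.3, scipy 1.17.1, matplotlib 3.10.9 and samtools 1.23.1 were used.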

Additional observations from a re-analysis of the deposited data

Results flagged for a closer look

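The log2 change of SOX9 coverage was larger in the M pair than in the F pair by 2.27 at the Nes start site, by 0.96 at the Synm start site and by 0.50 over the Nes locus. With 1 library of each sex per condition, these differences between the sexes were not tested. The median log2 change of all tested start sites was 0.41 in the M pair and -0.54 in the F pair, and that of all loci 0.08 and -0.14, so the Synm value is about the offset of all genes and the Nes values include it.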

How the results depend on the processing

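Of 180 log2 changes of the 4 genes under an alternative, 48 could not differ from the first fit, since those settings alter only the test. Of the other 132, 128 kept their direction, though not their size (Nes start site 0.26 to 1.77). In all 180, 0 had an adjusted p under 0.05 (limma; smallest 0.0535, at the Vim locus).

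Start sites passing the test numbered 2. They were 0 with trimmed-mean scaling, 1 with a pseudocount of 2, 0 without the filter, 0 with all 8 libraries, 1 at equal depth, 1 from the start of the gene record, 0 with 500 bp to each side, and 0 to 0 with 1 library left out. Gene bodies numbered 0, then 15 with trimmed-mean scaling, 4 with all 8 libraries and 0 to 33 with 1 left out. Loci numbered 27, then 1 with trimmed-mean scaling, 14 without the filter, 0 with all 8 libraries, 0 without the trend and 3 to 248 with 1 left out. Tiles numbered 70, then 24 with trimmed-mean scaling, 41 with the low filter, 0 with all 8 libraries, 0 without the trend, 42 at equal depth and 13 to 596 with 1 left out. Their direction turned as well, from 60 higher and 10 lower to 43 and 0 (without uninjured M), 553 and 43 (uninjured F), 30 and 64 (1 d.p.i. M) and 0 and 13 (1 d.p.i. F). A fit without 1 library assumes that the lone library varies like the others.

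With the M and F letters as a replicate block, 1 start site, 293 gene bodies, 12 loci and 26 tiles passed, and the log2 changes of the 4 genes did not move. The letters mark different animals, and the block was not used otherwise.

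The log2 change at the Synm start site ran from -0.51 to 0.33 with 1 library left out and was 0.0612 with 2 kb to each side. That of the Nes locus ran from -0.14 to 0.28 and was -0.0279 at equal depth. The difference of IREN8 coverage was -0.615, -2.03 at equal depth, -0.295 with 500 bp added to each side, and -1.23 to 0 with 1 library left out. That of IREN22 was 5.48, 7.89 at equal depth and 3.10 with 500 bp added to each side. With trimmed-mean scaling, both injured libraries exceeded both uninjured ones at 2 of the 4 loci, not 3.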
